A study of Mus musculus with 4 samples.

Results

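The span of the Ctbp2 gene, on its strand, held 74 of the 47777 intervals (peaks) at which RNA crosslinked to eIF4A2 was enriched in mouse embryonic stem cells. These peaks, called Ctbp2 peaks below, were chosen by position, as every peak of the deposited list with its midpoint on the minus strand of chr7:140177000-140320000 (mm9), the span of the Ctbp2 gene in that build. Binding was measured by eCLIP, a method in which cells are irradiated with ultraviolet light so that RNA in contact with a protein becomes bound to it, the protein is pulled down with an antibody, and the attached RNA fragments are sequenced. There were 2 IP libraries, made with an antibody against eIF4A2, and 2 input libraries without that recovery. All 4 came from feeder-free J1 embryonic stem cells of the 129S4/SvJae strain, grown with serum and leukemia inhibitory factor and crosslinked in the same way, and the labels call the replicates biological. The authors deposited 1 list for all 4 libraries, in which each peak has 1 log2 fold of IP over input. No value is given per library, so the spread between replicates, the error of a peak's fold and the depth are unknown, and every value below is a description with no test. The gene and its span were picked with this list in view, so the presence of peaks there is not a finding. The list names no genes. The label could be checked only against position and strand, and marker genes of embryonic stem cells could not be looked up.

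Ctbp2 encodes C-terminal binding protein 2, a nuclear corepressor that binds NAD(H), is recruited by DNA-binding factors through a short peptide motif, and brings in enzymes that modify histones. From another start, the same gene encodes RIBEYE, the main structural protein of synaptic ribbons in photoreceptors and hair cells. In mouse embryonic stem cells CtBP2 has been linked to the shutdown of active genes when cells leave pluripotency. eIF4A2 is a DEAD-box RNA helicase, a close paralog of the initiation factor eIF4A1, and has been linked both to translation initiation and, with the CCR4-NOT complex, to translational repression.

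No mm9 annotation or genome sequence was used here, so peaks were not assigned to exons, introns or untranslated regions, and no peak sequence is given. As background on the gene, the GENCODE M21 annotation of another build, GRCm38, places Ctbp2 (ENSMUSG00000030970.16) on the minus strand with a length of 137 kb and 20 transcripts. Their merged exons make up 6.22 kb in 24 pieces of 51 to 1973 bases, or 4.55% of the gene. In that annotation 2 other genes overlap Ctbp2 on the same strand: B930086L07Rik lies within it, and 1 transcript of Fgfr2, which encodes a fibroblast growth factor receptor, begins inside it. Whether a peak belongs to Ctbp2 or to RNA of those genes cannot be told apart from this list. The list also gives no RNA levels, so more binding per molecule and more Ctbp2 RNA per cell cannot be told apart.

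The peaks ran along nearly the whole span and stopped sharply at both ends. The peak farthest 5′ (on the minus strand, the highest coordinate) ended at 140314992 and the peak farthest 3′ began at 140179548, an extent of 135 kb. Just outside the span, the nearest peak of the same strand on the 3′ side lay 135 kb away at chr7:140044248-140044291, with a log2 fold of 1.24. On the 5′ side the nearest lay 636 kb away at chr7:140951429-140951465, also with a log2 fold of 1.24. Members just inside the limits, the peaks farthest 5′ and farthest 3′, had log2 folds of 1.05 and 1.41. The plus strand held 0 peaks in the span. Its nearest peak ended at 140175452, beyond the 3′ end of the Ctbp2 peaks by 4.1 kb, on the side of Zranb1, the neighbouring protein-coding gene in GRCm38. Joining all peaks of the strand that lay within 50 kb of each other returned exactly these 74 peaks as 1 chain. Widening the span by 10 kb at both ends added no peak, and narrowing it by as much left 53 peaks, without those at either end.

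Ctbp2 peaks tended to be wider than the other peaks of the list, and most were only moderately enriched. Their median width was 45 bases (interquartile range 26.3 to 67, maximum 133), against 32 bases among the 47703 other peaks. The log2 folds ranged from 1.00 to 2.76, with a median of 1.46, or 2.76-fold. The median of all other peaks was 1.65, or 3.15-fold. The list starts just above a log2 fold of 1, which is 2-fold, and 40 of the 74 Ctbp2 peaks (54.1%) lay below 1.5. At a log2 fold of at least 2 (4-fold) stood 13 Ctbp2 peaks, or 17.6% (Wilson 95% interval 10.6 to 27.8%), against 28.3% of the whole list. At 3 or more (8-fold) stood 0 of the 74 peaks (Wilson interval up to 4.94%), against 4.03% of the list. These intervals cover counting error only and treat peaks as independent, which neighbouring peaks are not. Some folds correspond to less simple ratios of whole numbers (a denominator over 10, as described among the other observations). Such folds belonged to 49 Ctbp2 peaks and 11598 others. Between these sets the contrast was not seen: the median was 1.48 in both, and 18.4% and 14.5% reached a log2 fold of 2. It remained for the 37 of these Ctbp2 peaks outside the 5′ block described below. Their median was 1.33, and 2.70% reached 2. A log2 fold of 3 was reached by only 0.59% of the 11598 others. The difference in width was also smaller here. Median widths were 52 bases for the 49 Ctbp2 peaks, 47 for the 37 outside the block and 46 for the others.

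The run with the most Ctbp2 peaks, and with the highest fold among them, was at the 5′ end. The 14 peaks farthest 5′ lay at chr7:140313483-140314992, within 1.51 kb, and no other peak followed for 5.32 kb. This block took up 1.11% of the extent but held 18.9% of the peaks and 30.3% of the bases covered by peaks. Its number and share of peaks hold for the list as deposited, since merging peaks within 50 bases joined most of them. Peaks covered 74% of the block and 2% of the remaining 129 kb. Of the 10 Ctbp2 peaks with the highest folds, 6 lay in the block.

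**Figure D1:**
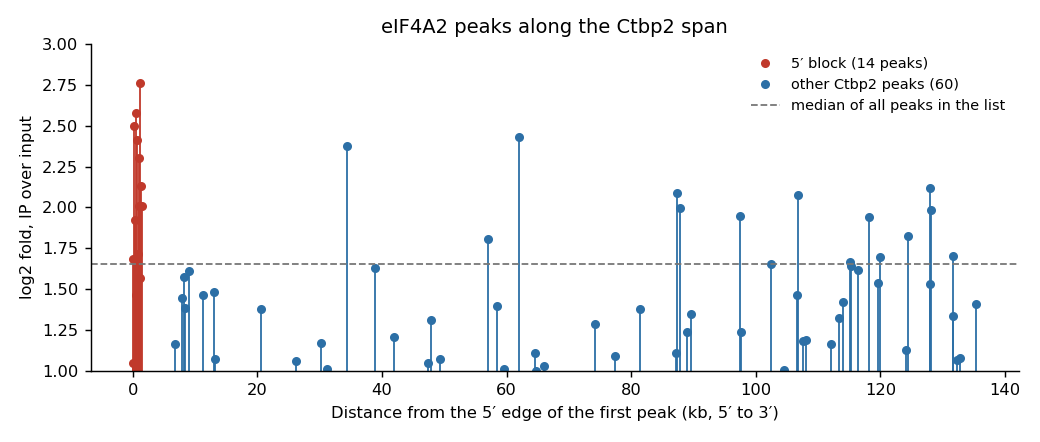
Log2 fold of IP over input (vertical axis, from the list's lower limit of 1) for each of the 74 Ctbp2 peaks against its distance in kb from the 5′ edge of the first peak (horizontal axis). The 14 red peaks of the 5′ block crowd into the first 1.51 kb and reach 2.76, the 60 blue peaks spread over the remaining distance and reach 2.43, and the dashed line is the median of the list, 1.65.

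Within the block, enriched intervals followed each other almost without a break. The distance between neighbours was 0 to 83 bases with a median of 41, and 4 of the 13 neighbouring pairs touched end to end. The block opened with its weakest peak, which covered 140314930 to 140314992 and had a log2 fold of 1.05. The touching peak at 140314822 to 140314929 had 1.68. The next, again touching, at 140314689 to 140314821, was 133 bases wide and had 2.50. Of these 3 opening peaks the last was the strongest, but the order did not continue along the block.

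Further in, a 95-base peak with a log2 fold of 1.92 and a 23-base peak with 1.46 came before a strong pair that touched. The 5′ peak of that pair, 140314417 to 140314460, had a log2 fold of 2.58 and the 3′ peak, 140314314 to 140314416, had 2.41. A 133-base peak at 1.71 and a 70-base peak at 2.01 followed. High and low values alternated here, with no peak below 1.46 after the opening one.

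The most enriched Ctbp2 peak lay near the 3′ edge of the block, at chr7:140313708-140313803, with a log2 fold of 2.76 (6.78-fold). On its 5′ side were a 24-base peak with 2.30 and a touching 51-base peak with 1.57. On its 3′ side were a peak at 140313610 to 140313666 with 2.13 and the last of the block, at 140313483 to 140313600, with 2.01. Strong peaks therefore stood near both edges and in the middle of the block rather than at 1 summit.

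**Figure D2:**
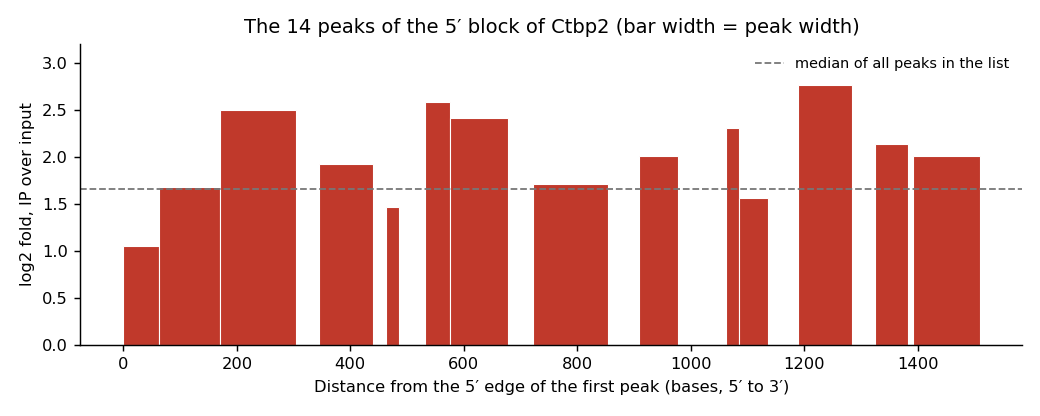
The 14 peaks of the 5′ block, drawn as bars as wide as the peaks at their distance in bases from the 5′ edge of the first peak (horizontal axis), with the log2 fold of IP over input as height (vertical axis). Bars cover 74% of the 1510 bases, 3 of them stand below the dashed list median of 1.65, and the highest, 2.76, is the 12th from the 5′ end.

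Compared with the rest of the gene, block peaks were wider and more enriched. Their median width was 82.5 bases, against 40.5 bases for the 60 other Ctbp2 peaks. The median log2 fold was 2.01 in the block (4.02-fold) and 1.38 outside it (2.61-fold). A log2 fold of at least 2 was reached by 8 of the 14 block peaks, or 57.1% (Wilson interval 32.6 to 78.6%), and by 5 of the 60 others, or 8.33% (3.61 to 18.1%), beside the 28.3% of the list. These intervals treat peaks as independent, which adjoining pieces of 1 short stretch are not, so they understate the uncertainty for the block. The sets overlapped, since 13 of the 14 block peaks exceeded the median of the others and 5 of the 60 others exceeded the median of the block. The block was delimited by the distance between peaks and singled out after its folds were seen, so this is a description and no test was made.

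**Figure D3:**
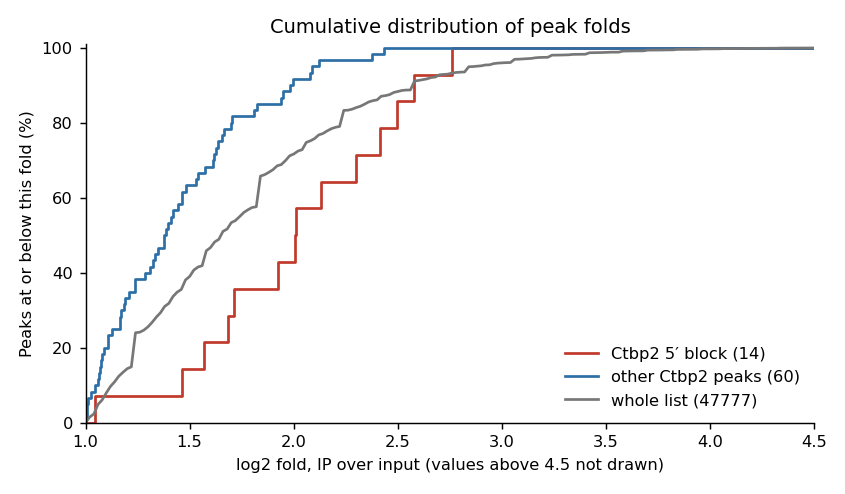
Share of peaks (vertical axis, %) at or below each log2 fold of IP over input (horizontal axis) for the 14 block peaks (red), the 60 other Ctbp2 peaks (blue) and the whole list of 47777 (grey). The curve of the block lies right of the list over most of its range (median 2.01 against 1.65), that of the other Ctbp2 peaks lies left of it (median 1.38), and only the list goes on beyond 2.76.

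Downstream of the block, single peaks and small groups alternated with long empty stretches. When peaks within 1000 bases were joined, 24 peaks stood alone and 9 groups held 2 peaks, besides the larger groups described below. The median distance between neighbours was 41 bases within the block and 1283 bases outside it (interquartile range 474 to 3284), where the 60 peaks averaged 1 per 2.14 kb. Over all 73 neighbouring pairs of the gene the median distance was 1013 bases. A distance of over 1000 bases separated 38 pairs and one of over 5000 bases separated 8. The widest gap, 8087 bases, separated the peak 140248911 to 140248977, whose log2 fold was 1.03, from the peak 140240797 to 140240823, whose log2 fold was 1.28. The next, 7867 bases, lay between peaks at 140225427 to 140225453 with 1.35 and 140217502 to 140217559 with 1.95. A gap of 7625 bases separated a peak at 140265646 to 140265675 with 1.07 from one at 140257949 to 140258020 with 1.81. In each of these 3 cases the peak on the 3′ side of the gap had the higher fold.

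Peaks were scarcest just past the middle of the gene and more frequent towards its 3′ end. When the extent was divided into 4 equal parts of 33.9 kb from 5′ to 3′, they held 26, 13, 10 and 25 peaks. Without the block the part farthest 5′ held 12. The median log2 fold was 1.57, 1.21, 1.32 and 1.53 in the same order, and 1.38 in the part farthest 5′ without the block. Bases covered by peaks numbered 1529, 556, 338 and 1266, and 411 in the part farthest 5′ without the block. The higher count and coverage of the part farthest 5′ over the next part thus rested on the block, while the part farthest 3′ exceeded both middle parts in count, coverage and median fold. Outside the block, 0, 2, 1 and 2 peaks had a log2 fold of at least 2.

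**Figure D4:**
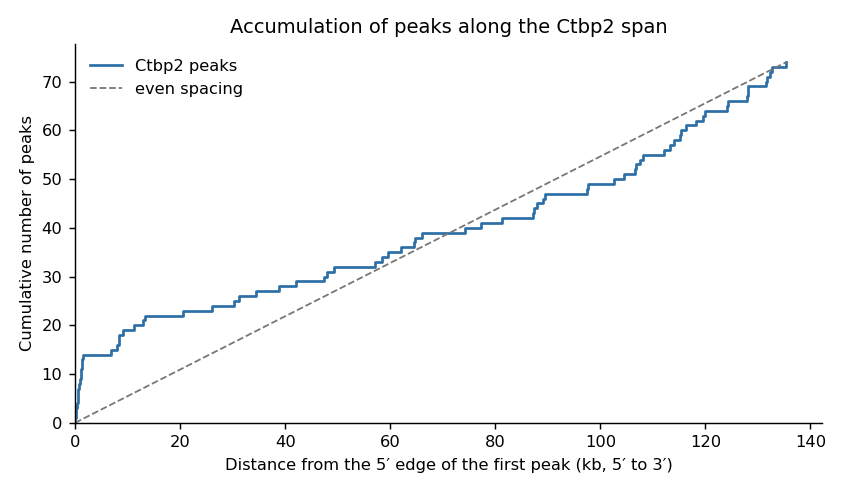
Cumulative number of Ctbp2 peaks (vertical axis) against distance in kb from the 5′ edge of the first peak (horizontal axis), with the dashed line for even spacing of 74 peaks over 135 kb. The count reaches 14 within 1.51 kb, crosses the even line near the middle of the gene and steepens again over the last part, which holds 25 peaks.

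Outside the block, 5 groups of at least 3 peaks had neighbours within 1000 bases. The one nearest the 5′ end, 4 peaks at 140305926 to 140307036, was even, with log2 folds of 1.39 to 1.61. Past the middle of the gene, 87.2 kb from the 5′ end, 3 peaks at 140227130 to 140227849 had 1.11, 2.09 and 1.99 from 5′ to 3′. The 4 peaks at 140206880 to 140208352 had 1.46, 2.08, 1.19 and 1.19. In both of these groups a peak above 4-fold stood close to a weaker one on its 5′ side, 136 bases away in the group of 3 and 117 bases away in the group of 4.

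Near the 3′ end, 3 touching peaks at chr7:140186838-140187049 formed an unbroken interval of 212 bases. Their log2 folds were 1.53, 2.12 and 1.98 from 5′ to 3′, and the middle value was the highest among the 25 peaks of the last part of the gene. The group farthest 3′, 4 peaks at 140182189 to 140183402, had values of 1.71, 1.33, 1.06 and 1.08. The last peak of all, at 140179548 to 140179626, had 1.41. In the list as deposited, without merging, the 5′ block thus held 14 peaks, and neither of these groups near the 3′ end held more than 4.

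The most enriched peak outside the block, and the next after it, stood alone. The other peaks outside the block with a log2 fold of at least 2 lay in the groups described above. A peak of only 6 bases at chr7:140252939-140252944 had a log2 fold of 2.43 (5.4-fold), the 4th highest of the gene, with its nearest neighbours 2391 and 2464 bases away. A 31-base peak at chr7:140280587-140280617 had 2.38 (5.2-fold), with its nearest neighbours 3107 and 4433 bases away. Both folds correspond to ratios with a denominator of at most 10. The lowest folds were 1.00, at 140250261 to 140250279, and 1.01, at 140210493 to 140210549, just above the lower limit of the list. Width said little about fold: Spearman's rho of width and log2 fold was 0.14 over the 74 peaks and -0.07 over the 60 outside the block. These are descriptions over peaks that share the same libraries.

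The fold had no single trend along the gene. Spearman's rho of distance from the 5′ end and log2 fold was -0.16 over the 74 peaks, and 0.21 over the 60 peaks outside the block, so its sign rested on the 14 block peaks. The folds of neighbouring peaks had a rho of 0.26 over 73 neighbouring pairs. Among the 59 pairs outside the block it was only 0.11, so neighbours there showed little similarity in fold.

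Set beside other long chains, Ctbp2 held many peaks with a low median fold. Chains were formed on each strand from peaks within 50 kb of each other, without regard to gene limits, so a chain can cover several genes. Of 808 chains that spanned at least 100 kb, the Ctbp2 chain had the 13th highest number of peaks, against a median of 15 peaks and a maximum of 238. Among the 41 of these chains with at least 50 peaks, a limit chosen after the values were seen, median log2 folds ran from 1.44 to 2.46, and the Ctbp2 median of 1.46 was the 39th from the top. The chains were not matched for the kind of ratio behind their folds. A block of at least 10 peaks at the 5′ end was present in 5 of the 41 chains, and one of at least 14 in 3. Blocks of that size were common at other places: in 24 of the 41 the largest block held at least 10 peaks. Ctbp2 is included in all 3 counts. The whole list held 172 blocks of at least 10 peaks and 57 of at least 14.

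The 3 chains with the most similar numbers of peaks were laid out in different ways. A chain of 73 peaks on the plus strand of chromosome 8 (125856945 to 126055836, 199 kb) had a median log2 fold of 1.49, and its largest block, of 10 peaks, lay at 34.6% of its length from the 5′ end. A chain of 72 peaks on the same strand (86424040 to 86550655, 127 kb) had a median of 1.90. Like Ctbp2, it began with its largest block, of 18 peaks with a median of 2.03, but the peaks outside that block also had a high median, 1.88. The chain of 69 peaks on the plus strand of chromosome 4 (32726702 to 32854130, 127 kb) had a median of 1.72, and its largest block, of 12 peaks, lay at 74.3% of its length. In Ctbp2 the median was 2.01 in the block and 1.38 outside it, a difference of 0.63 that was the widest of these 4 chains. Among the 41 chains, 3 had a wider difference between their largest block and their other peaks, up to 2.09. None of these differences was tested.

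**Figure D5:**
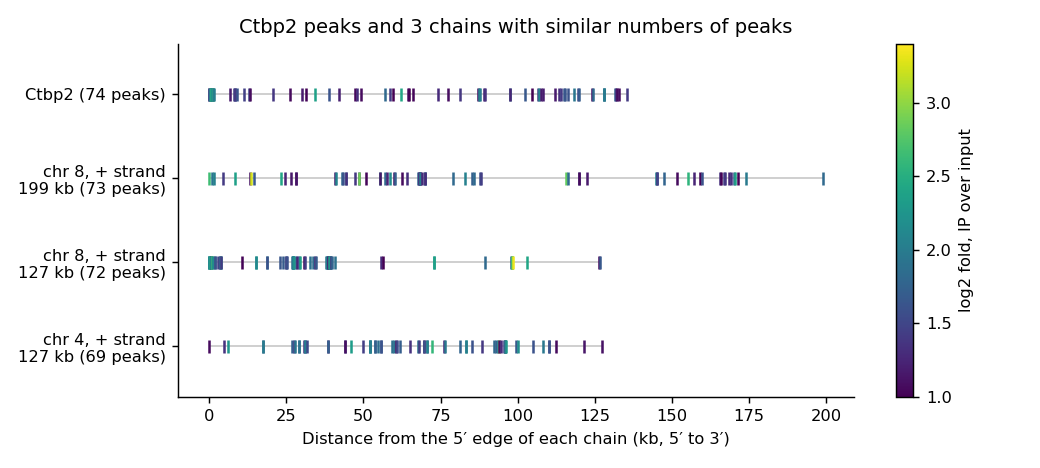
Peaks of Ctbp2 (top) and of the 3 chains with the nearest numbers of peaks, as ticks at their distance in kb from the 5′ edge of each chain (horizontal axis), coloured by log2 fold of IP over input. Dense ticks at the 5′ edge are seen in Ctbp2 (14 peaks) and in the chain of 72 peaks (18), while the other 2 chains have their largest blocks further along.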

How the data were processed

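The deposited peak list holds 1 log2 value per peak, the IP over input fold computed by the authors. The scale was read from the values, since no header states it. The tools were cutadapt 1.18 and STAR 2.6.1b with mm9, per the submitters' processing notes. How peaks were called and filtered and how replicates were combined is not given in the sources used here. Starts were changed to count from 1. Peaks were ordered 5′ to 3′, with the listed strand taken as the RNA's. Blocks and groups join peaks within 1000 bases, and chains join those within 50 kb. GENCODE M21 (GRCm38) served for names and lengths only, and no coordinates were converted. Because the span holds over 40 peaks, those named are the 10 highest and 2 lowest folds, the 3 at either end, those beside the 3 widest gaps and groups of at least 3. The members and lists were chosen with earlier results of these data known. Alternatives changed the fold limit, merging, width and span limits. Selection by position, distances, ratios and chains were tested on simulated peaks that did not touch, with the constant behind the ratios given. Merging, the joining of touching peaks into blocks and the estimate of that constant were not tested. Python 3.11.15, numpy 2.4.6, scipy 1.17.1 and pandas 2.3.3 were used.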

Additional observations from a re-analysis of the deposited data

How the results depend on the processing

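Of 37 alternative values, 29 stayed within the range set for them: a factor of 1.5 for the count, 0.1 for the correlation, and the 95% interval over peaks for medians and shares. The 29 include those from widening the span by 10 kb and from counting any overlap. Both returned the same 74 peaks, so their values could not differ. With a log2 limit of 1.5, 34 of 74 peaks were left, with a correlation of position and fold of -0.352. Merging peaks within 50 bases left 60 peaks and a correlation of -0.0167. Most peaks of the 5′ block were merged, since only its distances of 54, 83 and 52 bases exceeded 50. The block's number and share of peaks thus depend strongly on how adjoining intervals were split. So do its count at a log2 fold of at least 2 and the comparisons of its size with other groups and chains. Narrowing the span by 10 kb at both ends removed the block and left 7.55% of peaks at a log2 fold of at least 2, with a correlation of 0.231. Leaving out only the block, an alternative chosen after seeing the data, gave 8.33% and 0.207. The same span on the plus strand held 0 peaks. No paired analysis was possible because the list has no values per library, and no replicate could be left out for the same reason. What depth limits could not be measured.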

Other observations

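The fold values of Ctbp2 peaks were built on less simple ratios than most of the list. After subtraction of a constant of 0.24 on the log2 scale, every Ctbp2 value equalled the log2 of a ratio of whole numbers with a denominator of at most 118 (relative tolerance 3e-09). These numbers are the simplest that give the value and are not read counts. The constant was set by taking the commonest value of the list, 1.24, as a ratio of 2 to 1. Another choice would give other ratios and denominators. The denominator was at most 10 for 25 of the 74 Ctbp2 peaks (33.8%), against 75.7% of the 47703 other peaks, and ratios with a denominator of 1 made up 4.05% of Ctbp2 peaks against 27.9% of the others. Within the 5′ block the values ran up to a ratio of 321 to 118, and the most enriched peak stood at 241 to 42. The isolated peaks of 2.43 and 2.38 stood at 32 to 7 and 22 to 5. Among peaks with a denominator over 10, a split made after the values were seen, the median log2 fold was 1.48 for 49 Ctbp2 peaks and 1.48 for 11598 others, whereas over all peaks it was 1.46 and 1.65. A log2 fold of at least 2 was reached in that subset by 18.4% of Ctbp2 peaks and 14.5% of the others. Of the 49 Ctbp2 peaks, 12 lay in the 5′ block. The other 37 had a median of 1.33, and 2.70% of them reached a log2 fold of 2.

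Non-overlapping windows of 143 kb, the length of the span, were laid over each strand of every chromosome. Of 36741 windows, 8905 held a peak, with a median of 3 peaks, and 4 held at least as many as the 74 of Ctbp2. The windows were placed without regard to genes, whereas the span follows the limits of 1 gene that was picked with this list in view, so the rank describes the list only.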
